A study of Mus musculus with 10 samples.

Results

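Brain endothelial cells carry fuel and vitamins from blood to neural tissue through membrane carriers of the solute carrier (Slc) families, and 7 such genes are described here: Slc2a1, Slc16a1, Slc16a4, Slc6a8, Slc29a1, Slc5a6 and Slc19a3. They were taken by gene symbol from a table of 26264 genes, all 7 were found, and all 7 passed the filter on low values, as did 12751 genes in all. Cells positive for CD31, an endothelial surface protein, were sorted from C57BL6 mouse brain freed of meninges, cerebellum and olfactory bulbs, and their RNA was sequenced. Of the 10 libraries, 5 came from mice fed PLX5622 at 1200 ppm for 1 month (3 males and 2 females) and 5 from mice fed control diet for 1 month (3 males and 2 females). PLX5622 inhibits CSF1R, a receptor kinase that microglia need to survive, and the study asks what its use does to brain vessels. The labels give no age, and they name no genetic change in any group.

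The barrier endothelium is sealed by tight junctions, so water-soluble nutrients reach the brain mostly through carriers. Slc2a1 encodes GLUT1, the facilitative glucose carrier for which brain endothelium is known, and loss of a functional copy in humans starves the brain of glucose. Slc16a1 encodes MCT1, which moves lactate, pyruvate and ketone bodies together with protons. Slc16a4 encodes a less studied protein of the same monocarboxylate family. Slc6a8 encodes the sodium- and chloride-dependent creatine carrier, and its gene lies on the X chromosome. Slc29a1 encodes ENT1, an equilibrative nucleoside carrier that moves adenosine down its gradient. Slc5a6 encodes a sodium-dependent carrier of biotin, pantothenate and lipoate, and Slc19a3 encodes a thiamine carrier.

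The bases just before the annotated start are shown for the pair whose levels ran in opposite directions across libraries, Slc2a1 and Slc16a4, and for Slc16a1, whose female and male levels did not overlap. Each run is the 250 bases before the RefSeq start on GRCm38.p6, read 5′ to 3′ on the plus strand, which is the gene's own strand for all 3. Capitals mark matches, on either strand, of 4 motifs: ACGTG, the core bound by hypoxia-inducible factors, GGGCGG, the GC box, CTTTGA, a core bound by TCF/LEF factors of the Wnt pathway, and TATAAA, the TATA box.
Slc2a1 (chr4:119108495-119108744): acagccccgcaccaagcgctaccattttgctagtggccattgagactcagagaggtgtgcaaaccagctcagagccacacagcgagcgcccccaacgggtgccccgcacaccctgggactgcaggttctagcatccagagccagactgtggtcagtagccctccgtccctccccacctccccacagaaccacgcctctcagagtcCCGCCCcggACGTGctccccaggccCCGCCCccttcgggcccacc
Slc16a4 (chr3:107290980-107291229): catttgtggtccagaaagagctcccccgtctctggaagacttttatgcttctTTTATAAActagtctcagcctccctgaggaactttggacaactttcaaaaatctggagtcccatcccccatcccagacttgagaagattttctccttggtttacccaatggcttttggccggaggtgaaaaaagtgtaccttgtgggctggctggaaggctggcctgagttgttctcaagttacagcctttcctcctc
Slc16a1 (chr3:104638414-104638663): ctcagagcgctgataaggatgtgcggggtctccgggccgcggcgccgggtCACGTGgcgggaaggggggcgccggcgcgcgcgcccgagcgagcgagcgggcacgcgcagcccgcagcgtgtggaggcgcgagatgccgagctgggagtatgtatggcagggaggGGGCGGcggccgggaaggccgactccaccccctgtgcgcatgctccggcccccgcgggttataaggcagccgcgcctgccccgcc

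The Slc2a1 window was 66.4% G or C with 13 CpG dinucleotides, and it held 2 GC boxes and 1 ACGTG. The Slc16a4 window was 48% G or C with 2 CpG dinucleotides, and it held none of the first 3 motifs. Its 2 matches of TATAAA were the same 8 letters read on both strands. The Slc16a1 window was the richest of the 3 in G or C at 76.4%, with 37 CpG dinucleotides, 1 GC box and 2 matches of ACGTG, which overlap as the palindrome CACGTG. Over all 32851 windows of this length in the table, the median was 52.4% G or C. ACGTG was present in 16.6% of them, GGGCGG in 32.7%, CTTTGA in 13.8% and TATAAA in 12.4%. The table held 6 of the 7 genes, with 1 start each for Slc2a1, Slc16a1, Slc16a4 and Slc19a3, 2 starts for Slc5a6 and 8 for Slc29a1. These matches describe letters in a window, not binding.

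Levels are given in TPM, which divides reads by gene length and sets the sum over genes equal between libraries. The libraries held 26435152 to 61540136 reads, as recovered from the deposited values. The 16 endothelial markers summed to 27518 to 30431 TPM in PLX5622 libraries and 29830 to 32002 TPM in control libraries. The highest sum of any other marker list was 893 TPM, of choroid plexus and ependyma markers in a PLX5622 library. Most of such high sums was the marker Ttr, at 0 to 820 TPM on PLX5622 and 0 to 558 TPM on control diet. No other marker of that list exceeded 19.1 TPM in any library. All 16 endothelial markers passed the filter. So did all 10 pericyte and all 9 astrocyte markers, so passing it does not tell cell types apart. Csf1r, the compound's target, stood at 0 to 0.461 TPM in PLX5622 libraries and 0.0689 to 20.2 TPM in control libraries. The low end on control diet was control female 1, whose 11 microglial markers summed to 53.5 TPM, against 105 to 179 TPM in the other 4 control libraries and 39.8 to 46.6 TPM in PLX5622 libraries. The other marker sums overlapped between the diets, among them pericyte markers (380 to 533 TPM on PLX5622 and 339 to 501 TPM on control diet), astrocyte markers (112 to 217 TPM on PLX5622 and 137 to 191 TPM on control diet) and erythrocyte markers (41.8 to 117 TPM on PLX5622 and 34.4 to 84.9 TPM on control diet). PLX5622 female 2 also stood apart, with the lowest endothelial sum, 27518 TPM, and the highest or lowest value of all 10 libraries for 5 of the 7 carriers. The main values that rest on either library are also given without it. In sorted bulk samples, fewer cells of a type and less RNA per cell cannot be told apart, and nothing in the labels ties a number to a pair of mice.

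The 7 carriers spanned a wide range of levels. Slc2a1 averaged 5251 TPM over the 10 libraries, which made it the 11th most abundant of all genes and 0.525% of all TPM. Slc16a1 followed at 520 TPM (rank 287), Slc19a3 at 342 TPM (rank 462) and Slc16a4 at 221 TPM (rank 754). Slc5a6 at 43.6 TPM, Slc29a1 at 33.9 TPM and Slc6a8 at 33.4 TPM were lower. In each of the 10 libraries Slc2a1 lay above Slc16a1, on average 10.2-fold on log2(TPM + 1). Slc16a1 lay above Slc19a3 by a mean of 0.59 on that log2 scale, Slc19a3 above Slc16a4 by 0.64, Slc16a4 above Slc5a6 by 2.31 and Slc5a6 above Slc29a1 by 0.35, each in 10 of 10 libraries. These 5 steps had the smallest p that sign flips over 10 libraries can give (two-sided exact permutation p = 0.00195, adjusted p = 0.00234 over 6 pairs). The order, and so the 6 pairs compared, came from the mean TPM of these same libraries, so these p are no independent test of the order. The last step, Slc29a1 over Slc6a8, was 1.01-fold and in the stated order in 7 of 10 libraries (exact permutation p = 0.717, adjusted p = 0.717).

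Within their families the main carriers were dominant to different degrees. Slc2a1 made up 99.3% to 99.5% of the TPM summed over 12 Slc2a genes. Slc2a8, an intracellular sugar carrier, was the next tested member at 20.7 ± 3.12 TPM in PLX5622 libraries and 18.5 ± 1.70 TPM in control libraries (SD, n = 5 each). Slc2a3, known as the neuronal glucose carrier, averaged 0.753 TPM on PLX5622 and 0.701 TPM on control diet and did not pass the filter. In the monocarboxylate family of 14 Slc16a genes, Slc16a1 held 40.1% to 50.2% of the summed TPM in PLX5622 libraries and 40.1% to 47.5% in control libraries. Slc16a4 held 15.9% to 21.1% on PLX5622 and 18.4% to 22.5% on control diet. Slc19a3 made up 95.0% to 97.2% of the TPM of the 3 Slc19a genes.

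**Figure D1:**
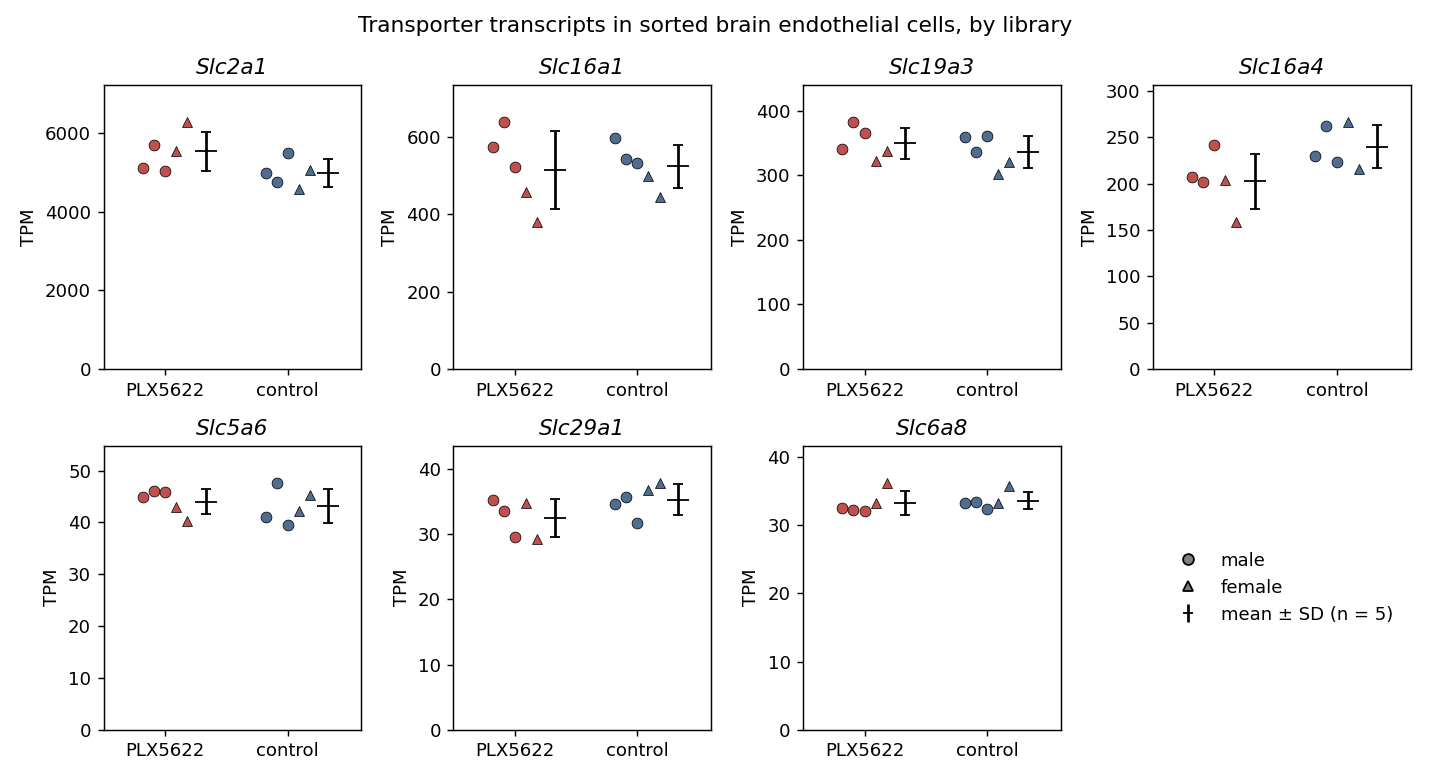
TPM (vertical axes, from 0) of the 7 transporter genes in each library, PLX5622 diet left and control diet right, with circles for males, triangles for females and a bar for mean ± SD (n = 5 mice per diet). The diets overlap for every gene, and the Slc16a1 triangles lie under the Slc16a1 circles on both diets.

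None of the 7 genes was called between the diets, and none had diets that did not overlap. Differences were tested with limma on log2(TPM + 1) over all 12751 genes, with sex in the model and a threshold of 0.05 on the adjusted p. Over all genes this fit called 17, or 0.133%, with 0.0941% higher and 0.0392% lower on PLX5622. Diets did not overlap for 1.8% of all genes tested. At an unadjusted p under 0.05 stood 1 of the 7, Slc16a4, against 8.31% of all genes. Of the 7 log2 fold changes, 3 were above 0 and 4 below, with a median of -0.01, against a median of -0.02 over all genes.

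Slc2a1, the glucose carrier, had 5115, 5688 and 5026 TPM in PLX5622 males and 5542 and 6279 TPM in PLX5622 females. Control males had 4994, 4743 and 5494 TPM and control females 4565 and 5065 TPM. All 5 PLX5622 libraries were above the control median, and 2 of them, PLX5622 males 1 and 3, lay within the control range. The means were 5530 ± 503 TPM on PLX5622 and 4972 ± 353 TPM on control diet (SD, n = 5 each). This is a log2 fold change of 0.15, with an SE of 0.08 (limma adjusted p = 0.696) and a 95% interval of -0.03 to 0.33, or 0.981-fold to 1.26-fold. Between 119970 and 263427 reads stood behind each value. Without PLX5622 female 2, the highest library, the log2 fold change was 0.10, without control female 1, the lowest, it was 0.11, and without control male 3 it was 0.20, with an unadjusted limma p of 0.0373.

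Slc16a4, of the monocarboxylate family, had 207, 202 and 242 TPM in PLX5622 males and 204 and 159 TPM in PLX5622 females. Control males had 230, 263 and 223 TPM and control females 267 and 216 TPM. PLX5622 female 2 was the lowest of all, and PLX5622 male 3 was the single PLX5622 library above the control median. The means were 203 ± 29.7 TPM on PLX5622 and 240 ± 23.2 TPM on control diet (SD, n = 5 each). The log2 fold change was -0.25, with an SE of 0.10 (limma adjusted p = 0.503), and its 95% interval of -0.46 to -0.04, which is not adjusted for the number of genes, did not include 0. Without PLX5622 female 2 the log2 fold change was -0.17, without control female 1 -0.18 and without control male 2 -0.23, with unadjusted limma p of 0.0729, 0.073 and 0.0571.

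Slc16a1, the lactate and ketone body carrier, had 575, 639 and 523 TPM in PLX5622 males and 458 and 381 TPM in PLX5622 females. Control males had 597, 544 and 533 TPM and control females 500 and 446 TPM. Both the highest and the lowest library were on PLX5622. The means were 515 ± 100.3 TPM on PLX5622 and 524 ± 56.0 TPM on control diet (SD, n = 5 each). The log2 fold change was -0.04 (95% interval -0.21 to 0.13, limma adjusted p = 0.953), and it was 0.02 without PLX5622 female 2.

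Slc19a3, the thiamine carrier, had 340, 382 and 365 TPM in PLX5622 males and 322 and 337 TPM in PLX5622 females. Control males had 359, 337 and 360 TPM and control females 302 and 320 TPM. Within each diet the 2 females had the lowest values, and the diets overlapped. Its log2 fold change was 0.06 (95% interval -0.05 to 0.17, limma adjusted p = 0.845).

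Slc29a1, the nucleoside carrier, had 35.3, 33.6 and 29.5 TPM in PLX5622 males and 34.9 and 29.3 TPM in PLX5622 females. Control males had 34.6, 35.7 and 31.7 TPM and control females 36.8 and 37.9 TPM. No PLX5622 library was above the control median, yet 3 of them lay within the control range. On the log2 scale the fold change was -0.12 (95% interval -0.28 to 0.05, limma adjusted p = 0.752), and it was -0.07 without PLX5622 female 2.

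Slc5a6, the biotin and pantothenate carrier, had 45.0, 46.1 and 45.9 TPM in PLX5622 males and 42.9 and 40.3 TPM in PLX5622 females. Control males had 41.0, 47.7 and 39.6 TPM and control females 42.3 and 45.3 TPM. Every PLX5622 library lay within the control range, and the log2 fold change was 0.03 (95% interval -0.12 to 0.18, limma adjusted p = 0.965).

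Slc6a8, the creatine carrier, had 32.5, 32.3 and 32.1 TPM in PLX5622 males and 33.2 and 36.2 TPM in PLX5622 females. Control males had 33.2, 33.4 and 32.3 TPM and control females 33.2 and 35.7 TPM. It was the steadiest of the 7, with a coefficient of variation of 5.13% on PLX5622 and 3.80% on control diet. The log2 fold change was -0.01 (95% interval -0.14 to 0.11, limma adjusted p = 0.978), and the sign turned with the scaling, to 0.0040 with median-of-ratios scaling. The largest coefficient of variation was that of Slc16a1, at 19.5% on PLX5622 and 10.7% on control diet. The median over the 7 was 8.91% on PLX5622 and 7.44% on control diet, against 7.94% on PLX5622 and 7.80% on control diet for the 5546 tested genes with a mean of at least 30 TPM.

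**Figure D2:**
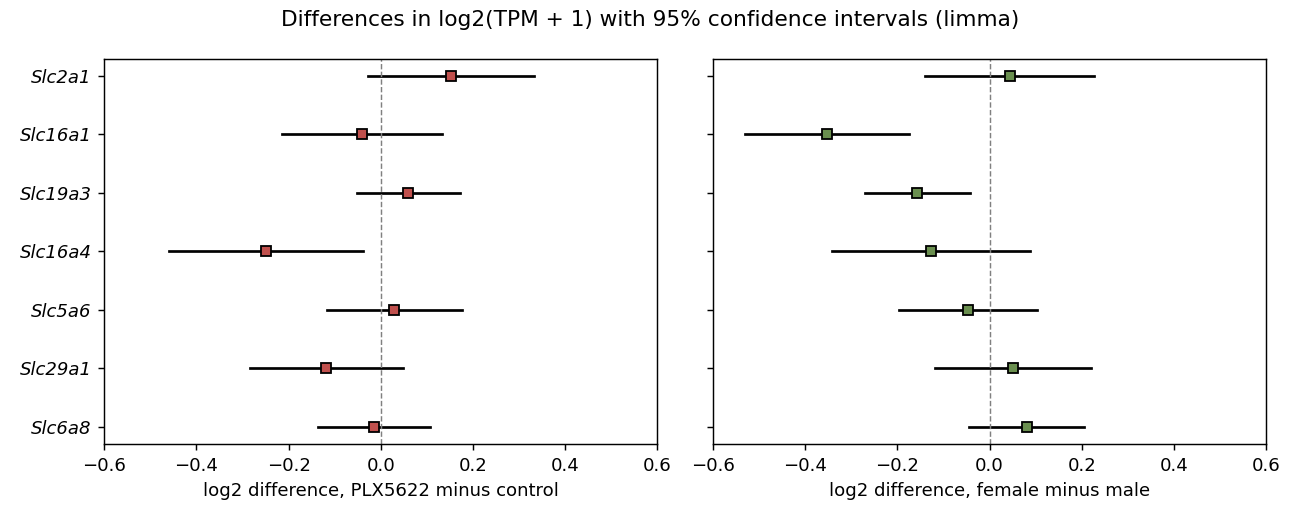
Points are differences in log2(TPM + 1) of each transporter gene, and bars are 95% confidence intervals from limma, for PLX5622 minus control (left) and female minus male (right), n = 10 libraries. On the left the Slc16a4 interval (-0.46 to -0.04) lies below 0, and on the right those of Slc16a1 (-0.53 to -0.17) and Slc19a3 (-0.27 to -0.04), none of them called after adjustment over all genes.

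The authors' deposited table gave none of the 7 an adjusted p under 0.05, where it called 116 of 19474 genes, or 0.596%. In the authors' deposited table Slc2a1 had a log2 fold change of 0.17 with an unadjusted DESeq2 p of 0.0237 (adjusted p = 0.597). Slc16a4 had -0.22 there, with an unadjusted DESeq2 p of 0.0307 (adjusted p = 0.669). At an unadjusted p under 0.05 stood 2 of the 7 in the authors' deposited table, against 6.33% of its genes. With voom on recovered reads, the unadjusted limma p was 0.032 for Slc16a4 (adjusted p = 0.57) and 0.0549 for Slc2a1 (adjusted p = 0.64).

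Slc16a1 was lower in every female library than in any male library. The 4 female libraries held 381 to 500 TPM and the 6 male libraries 523 to 639 TPM, and this held on PLX5622 and on control diet alike. The female mean was 446 ± 49.4 TPM (SD, n = 4) and the male mean 569 ± 44.1 TPM (SD, n = 6). The log2 difference, female minus male, was -0.35 ± 0.08 (SE, 95% interval -0.53 to -0.17), with an unadjusted limma p of 0.000999 that failed the adjustment over all genes (adjusted p = 0.457). Females lay wholly below males for 1 of the 7 genes, and for 0.298% of all genes tested (0.792% in either direction). The difference was -0.28 without PLX5622 female 2, the lowest library.

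Slc19a3 was lower in females as well, at 320 ± 14.3 TPM (SD, n = 4) against 357 ± 16.8 TPM in males (SD, n = 6). The sexes overlapped by a single pair of libraries, PLX5622 female 2 at 337.2 TPM and control male 2 at 336.6 TPM. The log2 difference was -0.16, with an SE of 0.05 and an unadjusted limma p of 0.0111, and it failed the adjustment over all genes (limma adjusted p = 0.804). At an unadjusted p under 0.05 for sex stood 2 of the 7, against 5.8% of all genes, and limma called 0.0627% of all genes for sex and none of the 7. X-linked Slc6a8 was at 34.6 ± 1.62 TPM in females (SD, n = 4) and 32.7 ± 0.545 TPM in males (SD, n = 6), a log2 difference of 0.08 with a 95% interval of -0.04 to 0.20. No carrier was called for a diet difference that itself differed between the sexes (limma interaction adjusted p = 0.999 for each of the 7). None of the 7 had an unadjusted interaction p under 0.05, which 2.45% of all genes had, and limma called 0 genes. The interaction intervals were wide, -0.12 to 0.60 for Slc2a1 and -0.69 to 0.14 for Slc16a4.

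Across libraries Slc2a1 and Slc16a4 ran in opposite directions. Libraries with more Slc2a1 tended to have less Slc16a4, from control female 1 with 4565 and 267 TPM to PLX5622 female 2 with 6279 and 159 TPM. Over the 10 libraries Pearson's r of log2(TPM + 1) was -0.93 (permutation p = 0.00018, adjusted p = 0.00378 over 21 pairs) and Spearman's rho was -0.95 (permutation p = 0.00012, adjusted p = 0.00252). It was the single pair of the 21 past the threshold, but the call rested on PLX5622 female 2, without which r was -0.86 (permutation p = 0.00346, adjusted p = 0.0727 over 21 pairs). Without control female 1 r was -0.91 (permutation p = 0.00085, adjusted p = 0.0178). Without both, which were the 2 libraries farthest from the Slc16a4 median, r was -0.79 (permutation p = 0.0208, adjusted p = 0.168), and without the 2 farthest from the Slc2a1 median it was -0.83. After the means of diet and sex were removed r was -0.89, and no r was computed within a diet of 5 libraries. The ratio of Slc2a1 to Slc16a4 TPM was 20.8 to 39.6 in PLX5622 libraries and 17.1 to 24.6 in control libraries, with a median of 27.2 on PLX5622 and 21.7 on control diet. Without PLX5622 female 2 and control female 1 the ratio was 20.8 to 28.1 on PLX5622 and 18.1 to 24.6 on control diet. The endothelial marker sum was also lowest in PLX5622 female 2, and its part in the relation was not tested. Next was Slc16a1 with Slc6a8, at a Pearson r of -0.80 (permutation p = 0.0048, adjusted p = 0.0504) and a Spearman rho of -0.50 (permutation p = 0.144, adjusted p = 0.504). Without the 2 libraries farthest from the Slc16a1 median r was -0.59, and without the 2 farthest from the Slc6a8 median it was -0.34.

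**Figure D3:**
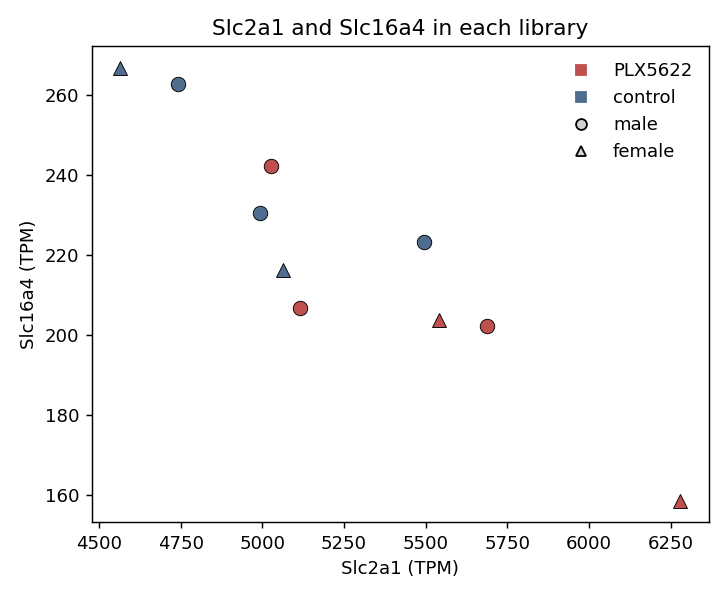
Each point is 1 library, with Slc2a1 TPM on the horizontal axis and Slc16a4 TPM on the vertical axis (neither axis starts at 0), red for PLX5622, blue for control, circles for males and triangles for females. The points fall from control female 1 (4565 and 267 TPM) at the upper left to PLX5622 female 2 (6279 and 159 TPM) at the lower right.

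The genes whose levels were most like each carrier were ranked by Pearson's r of log2(TPM + 1) over the 10 libraries. The ranking took in 8571 other tested genes with a mean of at least 10 TPM and no predicted-gene name (Gm or Rik). These r values describe the best of many and carry no test. For Slc2a1 they were Pxn (r = 0.95), Cttnbp2nl (0.94) and Fbxo7 (0.94). For Slc16a4 they were Rheb (0.96), Cav1, which encodes caveolin-1 (0.96), and Prkar2b (0.96). Cav1 averaged 392 TPM on PLX5622 and 503 TPM on control diet, with a log2 fold change of -0.37 (limma adjusted p = 0.327). For Slc16a1 they were Klhl5 (0.93), Rnd3 (0.89) and Ccz1 (0.89), and for Slc6a8 Lama3 (0.95), Tprn (0.94) and Zbtb46 (0.93). The remaining carriers had lower leading values, with Armh3 (0.90), Desi2 (0.88) and Prrc1 (0.88) for Slc29a1, Samm50 (0.90), Mansc1 (0.89) and Ccdc91 (0.87) for Slc5a6, and Ppox (0.88), Zfp69 (0.86) and Hdac3 (0.86) for Slc19a3.

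Related genes were read from the same fit in 6 lists, and no member of any was called between the diets. Over all 12751 genes tested, 0.133% were called, 8.31% had an unadjusted limma p under 0.05, 5655 were above 0 and 7096 below. In the glucose transport list, 10 of 22 genes were tested, 8 were above 0 and 2 below, and the median log2 fold change was 0.15. None of the 10 had an unadjusted limma p under 0.05. Most of the 10 were near the filter of 1 TPM, with means of at most 3.11 TPM on PLX5622 and 2.42 TPM on control diet. Slc50a1, a sugar carrier of the SWEET family and the second most abundant, stood at 228 ± 19.8 TPM on PLX5622 and 226 ± 18.7 TPM on control diet (SD, n = 5 each). Slc2a6 had a log2 fold change of 0.25 at a level near 1 TPM (limma adjusted p = 0.743).

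In the monocarboxylate list, 16 of 22 genes were tested, 8 above 0 and 8 below, with a median of 0.001. Of the 16, 4 had an unadjusted limma p under 0.05, against 8.31% of all genes tested. Bsg encodes basigin, the membrane chaperone that brings MCT1 to the cell surface, and it averaged 11792 ± 1090 TPM on PLX5622 and 12170 ± 1043 TPM on control diet (SD, n = 5 each). That is a log2 fold change of -0.05 (limma adjusted p = 0.954), and Bsg exceeded Slc16a1 by 17.7 to 29.3 times in PLX5622 libraries and 20.4 to 25.7 times in control libraries. Emb, the chaperone embigin, was near the filter at 1.44 TPM on PLX5622 and 0.766 TPM on control diet. Ldha, a lactate dehydrogenase subunit, had a log2 fold change of 0.11 (limma adjusted p = 0.807). Slc16a8, known from retinal pigment epithelium, had the smallest p of the list, with 0.869 to 2.03 TPM on PLX5622 and 0.298 to 1.19 TPM on control diet (limma adjusted p = 0.382). These are low levels, and the choroid plexus and ependyma markers, an epithelial source near the vessels, summed to 14.2 to 893 TPM on PLX5622 and 11.4 to 626 TPM on control diet. Ttr alone ran from 0 to 820 TPM on PLX5622 and 0 to 558 TPM on control diet, and no other of these markers exceeded 19.1 TPM. The part of such cells in the Slc16a8 value was not tested.

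Of the creatine list, 6 of 10 genes were tested and all 6 were below 0, with a median of -0.08. Below 0 were also 7096 of all 12751 genes tested, and none of the 6 had an unadjusted limma p under 0.05. Gatm, which makes the creatine precursor guanidinoacetate, stood at 260 ± 49.0 TPM on PLX5622 and 281 ± 22.5 TPM on control diet (SD, n = 5 each, limma adjusted p = 0.808). Ckb, the brain-type creatine kinase, was at 139 ± 17.6 TPM on PLX5622 and 147 ± 17.4 TPM on control diet (SD, n = 5 each, limma adjusted p = 0.894). Slc6a6, the taurine carrier placed in this list as a relative of Slc6a8, was the most abundant at 1468 ± 172 TPM on PLX5622 and 1536 ± 171 TPM on control diet.

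In the nucleoside and adenosine list, 13 of 19 genes were tested, 6 above 0 and 7 below, with a median of -0.03. Of the 13, 2 had an unadjusted limma p under 0.05, against 8.31% of all genes tested. The summed TPM of the list was 352 to 386 in PLX5622 libraries and 392 to 431 in control libraries. Entpd1, which encodes the ATP-hydrolysing surface enzyme CD39, had 97.2 to 115 TPM on PLX5622 and 117 to 130 TPM on control diet, with no overlap. Diets did not overlap for 1.8% of all genes tested, and Entpd1 had the smallest p of this list, 1 reason it was named. Its log2 fold change was -0.22, with an SE of 0.06 (limma adjusted p = 0.313). Entpd1 is also expressed by microglia, whose 11 markers summed to 39.8 to 46.6 TPM on PLX5622 and 53.5 to 179 TPM on control diet, and their part in the Entpd1 difference was not tested. Slc29a2, a second equilibrative nucleoside carrier, had 0.807 to 2.04 TPM on PLX5622 and 1.69 to 3.06 TPM on control diet (limma adjusted p = 0.514). Pnp, a purine phosphorylase, had a log2 fold change of -0.05.

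In the vitamin transport list, 24 of 26 genes were tested, 14 above 0 and 10 below, with a median of 0.02 and none at an unadjusted p under 0.05. Flvcr2, a choline carrier of brain endothelium, stood at 168 ± 15.5 TPM on PLX5622 and 168 ± 9.34 TPM on control diet (SD, n = 5 each). The riboflavin carrier Slc52a2 had a log2 fold change of 0.15 and the ascorbate carrier Slc23a1 0.30 (limma adjusted p = 0.709 and 0.72).

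Of 22 genes of glycolysis and glucose carrier control, 21 were tested, 14 above 0 and 7 below, with a median of 0.04. Of the 21, 4 had an unadjusted limma p under 0.05, against 8.31% of all genes tested. Pkm, the pyruvate kinase, had 489 to 530 TPM on PLX5622 and 444 to 470 TPM on control diet, with no overlap. Diets did not overlap for 1.8% of all genes tested, and Pkm was named for the smallest p of this list. It had a log2 fold change of 0.14, with an SE of 0.05 (limma adjusted p = 0.417). Tpi1, the triose phosphate isomerase, had a log2 fold change of 0.12 (limma adjusted p = 0.527). Epas1, a hypoxia-inducible factor abundant in endothelium, averaged 2205 ± 211 TPM on PLX5622 and 2140 ± 158 TPM on control diet (SD, n = 5 each), and Gapdh had a log2 fold change of 0.03.

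**Figure D4:**
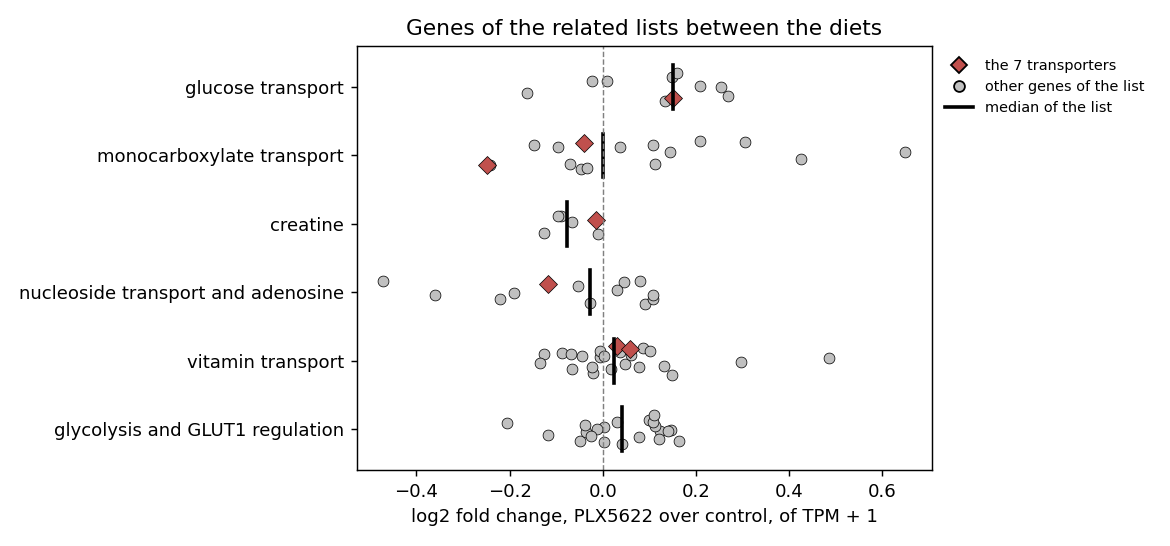
Log2 fold change of TPM + 1, PLX5622 over control (horizontal axis), for the tested genes of 6 lists (rows), with red diamonds for the 7 transporters, grey circles for other genes and a black bar for the median of each list; vertical scatter within a row has no meaning. The medians run from -0.08 (creatine) to 0.15 (glucose transport, mostly genes near the filter on low values), and none of the genes drawn was called.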

How the data were processed

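Libraries of polyA RNA from sorted brain endothelial cells were not stranded, per the labels' protocols. STAR 2.7.10a, featureCounts of Subread 2.0.1, DESeq2 1.32.0 in R 4.1.0 and the build mm39 are listed in the submitters' processing notes. Per library, the authors deposited TPM for 26264 genes and a DESeq2 table of 19474 genes with log2 fold changes, p-values and adjusted p-values, per the file headers. Its mean counts, standard errors and statistics were treated as deposited scores. Its model was not stated. Every library column was mapped to a title by diet, sex and number. The titles call the replicates biological.

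Values of log2(TPM + 1) were fitted with limma 3.58.1 (R 4.3.3) with a variance trend and terms for sex and diet, for genes at 1 TPM or more in at least 5 of 10 libraries. All p-values are two-sided and, where adjusted, follow Benjamini-Hochberg over all 12751 genes. The added 1 makes fold changes of low genes too small. Whole reads were recovered from TPM and the authors' mean counts for 19474 genes. Of the values above 0, 100.0% were whole within 0.05 reads. They give the depth and an alternative with voom. The pseudocount, filter, scaling, variance model, weights, covariates, samples and input were varied. The test was checked on simulated data. Levels of genes next to each other in the order of mean TPM were compared by exact sign flips, and pairs of genes by 100000 permutations. Promoter windows are RefSeq's on GRCm38.p6, matched by symbol, and no coordinate of the authors' build is given. Python 3.11.15, numpy 2.4.6, scipy 1.17.1, pandas 2.3.3 and matplotlib 3.10.9 were used.

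The genes and lists were chosen with earlier results of these data known. Named genes were the 7 carriers, the partners Bsg, Emb and Ckb, Csf1r, the called, the 2 most abundant and the 2 of smallest p in each list, and the 3 most like each carrier. Slc2a3, Slc2a8 and Ttr were named after their values were seen.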

Additional observations from a re-analysis of the deposited data

Results flagged for a closer look

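Of 14 sets of 5 libraries (7 carriers on each diet) checked for a library far from the others, 1 stood out, where chance gives about 1 in 20. Slc6a8 was at 36.2 TPM in PLX5622 female 2, against 32.1 to 33.2 TPM in the other 4 PLX5622 libraries, a gap of 0.738 of the whole range. That library also had the highest Slc2a1 and the lowest Slc16a1 and Slc16a4 of all 10, and the lowest sum of endothelial markers. Control female 2, at 35.7 TPM, was the highest control library for Slc6a8.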

How the results depend on the processing

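In none of 24 other settings was any of the 7 carriers called between the diets, and none was called for sex or for an interaction in the 12 settings run for those. Over all genes the count called was 17 with limma. It was 7 with no filter on low values, 7 with a constant prior variance, 8 in males only, 0 in females only (502 at an unadjusted limma p under 0.05), 116 in the authors' deposited table, and 5 to 16 without one library (5 without control male 2, 6 without PLX5622 male 2, 7 without control male 1, and 9 without PLX5622 male 1, PLX5622 female 1 or control female 2). With the replicate number within a sex as a block it was 11, and no call on a carrier changed. Deviations from the diet and sex means correlated at -0.08 to 0.09 between same-numbered libraries and at -0.38 to 0.02 between others of the same sex. The number was not used as a pairing, though 9 of 10 libraries correlated best with their own number, a hint from the data and not the design.

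The diet differences of Slc2a1, Slc16a4, Slc29a1 and Slc19a3 kept their sign in all 24 settings, but their size differed between the sexes fitted alone. In females only and males only, Slc2a1 was at 0.29 and 0.06, Slc16a4 at -0.42 and -0.14, and Slc29a1 at -0.22 and -0.05. No interaction was called. That of Slc16a1 turned to 0.050 in males only and ran from -0.093 to 0.021 without one library, above 0 without PLX5622 female 2 or control female 1. That of Slc6a8 turned to 0.0040 with median-of-ratios scaling, 0.00397 with quantile normalization, 0.00358 with voom, 0.0094 in females only and 0.0059 in the authors' deposited table, and ran from -0.037 to 0.00087 without one library. That of Slc5a6 was -0.072 in females only and ran from -0.00795 to 0.064 without one library. The sex difference of Slc2a1 ran from -0.018 to 0.10 without one library, and that of Slc16a1 from -0.41 to -0.28. The cause was not tested. The order of levels kept 5 of 6 steps past the threshold in each setting. Each carrier had at least 960 reads in every library, while depth and the filter limit what can be said of genes near 1 TPM, such as Slc16a8 and Emb. The relation of Slc2a1 and Slc16a4 without PLX5622 female 2, control female 1 or both was added after seeing the data, and it lost its call without the first and without both.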
